A study of Mus musculus with 22 samples.

Results

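Mouse embryoid bodies given 100 nM tetrabromobisphenol A (TBBPA) were compared with embryoid bodies given 10 nM TBBPA, on 5 days. The comparison uses 10 of the 22 RNA libraries of the series, which are the 5 labelled 100 nM TBBPA (D4, D9, D12, D18 and D28) and the 5 labelled 10 nM TBBPA on the same days. Each 100 nM library was paired with the 10 nM library of its day, with the day taken from the title of the library. All of them came from the J1 mouse embryonic stem cell line, and the labels give the material as embryoid bodies. For each day there are also 2 libraries given 0.1% DMSO, which are used here as the background measured the same way, and 2 untreated libraries titled ES were not used. Each dose is 1 library per day, so a difference at a single day has no replicate of its own. The labels do not say whether libraries came from separate cultures. A p-value of the fit reported measures only how the difference between the doses varied over these 5 days, not the spread between cultures. The spread between the 2 DMSO libraries of a day may be technical and does not enter that fit.

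TBBPA is a brominated flame retardant used in circuit boards and plastics. Its ring structure resembles that of thyroid hormones, it binds the thyroid hormone carrier transthyretin, and it can activate the adipocyte receptor PPAR gamma, which is why hormone and fat cell genes are often examined after exposure. Embryoid bodies are aggregates in which embryonic stem cells leave pluripotency and form cells of the 3 germ layers, among them yolk sac endoderm, neurons, muscle, epithelium and connective tissue. In such mixed material, fewer cells of a type and less RNA per cell cannot be told apart.

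The 10 libraries held 18246841 to 18998141 counts and listed 16728 to 17733 genes each, and their 10 most abundant genes took 4.18 to 5.74% of the counts. A level of 5 CPM (counts scaled to library size) stood for 91.2 to 95 counts at these totals. Levels below are CPM of 1 library after TMM scaling (a correction of library size), and a log2 ratio at a day is log2 of (100 nM CPM + 0.5) over (10 nM CPM + 0.5), so it understates the difference of low genes. Stem cell, germ layer and tissue markers followed the days in both doses: Pou5f1, a core pluripotency factor, was 846 and 916 CPM at D4 (10 nM and 100 nM) and 82.3 and 105 CPM at D28, while Col1a1, the chain of type I collagen, went from 4.96 and 4.2 to 3619 and 4097 CPM.

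The 2 doses were close to each other at every day, and closer than either dose was to DMSO. Among genes with at least 5 CPM in either library, 40 of 10930 differed over 1.5-fold between 100 nM and 10 nM at D4, 145 of 11423 at D9, 28 of 11728 at D12, 180 of 12122 at D18 and 216 of 12241 at D28. The 2 DMSO libraries differed that much in 28, 24, 19, 15 and 13 genes on those days. At D4 the SD over genes of the log2 ratio was 0.155 between the doses and 0.155 between the DMSO libraries. By that measure the doses were no farther apart at D4 than the DMSO libraries. The median size of the log2 ratio was 0.0782 between the doses and 0.0725 between the DMSO libraries. The SD at the other days is given next. At D12 the SD was 0.148 against 0.118. At D9, D18 and D28 it was 0.192, 0.196 and 0.209 against 0.127, 0.136 and 0.113. Across genes, Pearson's r between the log2 levels of the doses was 0.9959, 0.9931, 0.9956, 0.9921 and 0.9913 from D4 to D28, and genes are not independent replicates. Set against counting noise alone, the mean squared deviation per gene between the doses was 3.26 at D4 and 7.96 at D28 (1 would be counting noise), with 3.38 and 1.7 between the DMSO libraries.

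At D12 the doses lay close together and both lay far from DMSO. Each TBBPA library differed from a DMSO library of D12 with an SD of 0.302 to 0.337, and over 1.5-fold in 853 to 1064 genes, while the doses differed from each other in 28 genes. At D28 the 10 nM library differed from the DMSO libraries in 300 and 321 genes, and the 100 nM library in 554 and 586. These comparisons share the DMSO libraries, and no test was made between them.

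**Figure D1:**
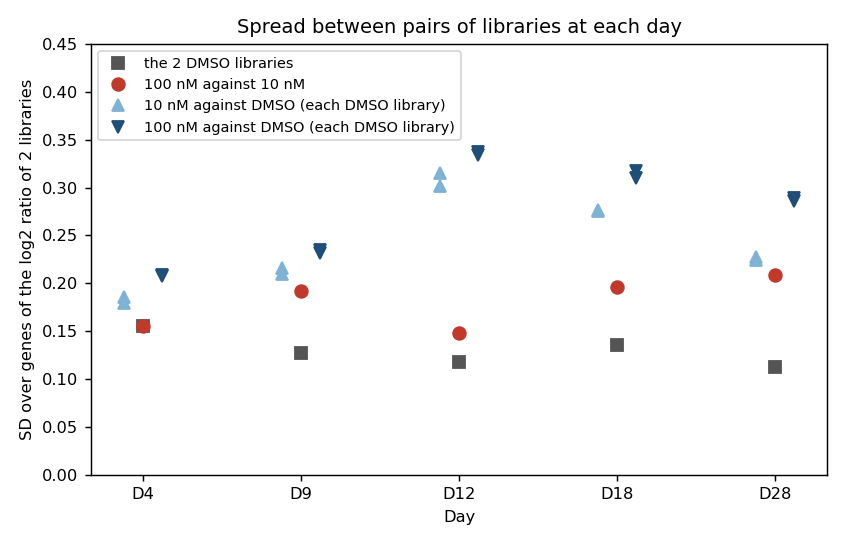
The SD over genes of the log2 ratio between 2 libraries (vertical axis) at each day (horizontal axis): red circles compare the doses, grey squares the 2 DMSO libraries, and triangles each TBBPA library with each DMSO library. The doses sit at 0.148 to 0.209, on the DMSO pair at D4 and above it from D9 to D28, and below every TBBPA to DMSO pair at each day.

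Some of the widest single ratios belong to genes whose reads cannot be placed well. Tmem254b and Tmem254c, near-identical copies, had log2 ratios of -3.17 and 2.57 at D4, and Hist1h2an, one of the many replicated histone genes, had -4.54 at D12. Over all days 20 genes were over 2-fold apart within a DMSO pair, and they made up 5 of the 8 genes past 2-fold between the doses at D4, 8 of 25 at D9, 4 of 5 at D12, 5 of 25 at D18 and 4 of 28 at D28. Sprr2a1 and Sprr2a2, copies of a small proline-rich protein of the skin barrier, moved in opposite directions at D28 (log2 ratios of 4.27 and -1.44). All of these values are uncertain, since the counting could split such reads.

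Over the 5 days together, no single gene differed between the doses past an adjusted p of 0.05. Of 14730 genes tested with edgeR's quasi-likelihood test, with the day as a factor, 0% passed (0 genes), and the smallest Benjamini-Hochberg adjusted p was 0.0594. At an unadjusted p under 0.05 there were 503 genes higher at 100 nM (3.41% of those tested) and 814 lower (5.53%). DESeq2 on the same libraries called 27 genes (7 higher and 20 lower), so the count of 0 depends on the test. Among the 12324 genes whose mean level reached 2 log2 CPM, 448 (3.64%) were higher at 100 nM at all 5 days and 625 (5.07%) were lower at all 5 days. Random signs would also agree on 5 days for some genes, and whether these shares exceed that was not tested. The median size of the fitted difference in the 12324 genes was 0.05 on the log2 scale. Only 19 of them had a fitted difference past 1.5-fold. On simulated counts of these libraries the test recovered 73.1% of 1.5-fold differences, 94% of 2-fold and 98.5% of 4-fold ones, and 7.33% of its calls were false. The simulated differences, planted in 200 genes, were the same on every day. These shares therefore do not hold for differences that vary over the days, and the count of 0 does not exclude such differences.

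None of the genes named next passed the adjusted threshold, and their values are given as those of smallest p. Ntn1, which encodes the axon guidance cue netrin-1, was 3.99, 80, 298, 368 and 242 CPM at 10 nM from D4 to D28, and 2.74, 61.6, 276, 265 and 184 CPM at 100 nM. It was lower at 100 nM on each day, with a fitted log2 difference of -0.34 ± 0.05 (SE) and an edgeR adjusted p of 0.0594. Beside DMSO it stood higher at both doses at D12, where DMSO held 150 and 151 CPM. Anxa5, the phospholipid-binding annexin A5, was 16, 102, 97.9, 104 and 159 CPM at 10 nM and 14.1, 77.8, 83, 83.8 and 137 CPM at 100 nM. Its difference was -0.28 ± 0.04, lower on 5 of 5 days, with an edgeR adjusted p of 0.0594. Loxl2, a lysyl oxidase that cross-links collagen, was 21.2, 261, 277, 343 and 466 CPM at 10 nM and 15.3, 226, 246, 277 and 404 CPM at 100 nM. Its difference was -0.25 ± 0.04, lower on 5 of 5 days, with an edgeR adjusted p of 0.065. Of the genes called under other settings, Anxa5 was called in 7 and Loxl2 in 6. Ntn1 was called in 5, as were Cyp2f2 and Msln, which are not among the genes named over the days. The settings reuse the same libraries or parts of them, so calls in several settings are not independent support for a gene.

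The other named genes on this side were P4ha2, a collagen prolyl hydroxylase (-0.26 ± 0.05), Plat, tissue plasminogen activator (-0.26 ± 0.05), Nid1, the basement membrane linker nidogen-1 (-0.22 ± 0.04), and Tgfbr2, a TGF-beta receptor (-0.30 ± 0.06). Cdh5, the cadherin of endothelial junctions, was 14.8, 18.1, 13.1 and 31.8 CPM at 10 nM from D9 to D28 and 9.9, 15.7, 9.71 and 20.3 CPM at 100 nM. It was at or under 0.182 CPM in every library of D4. Its fitted difference was -0.47 ± 0.09. Apoc2, an apolipoprotein that activates lipoprotein lipase, had the largest of these differences (-0.59 ± 0.12), and Spats2l had -0.31 ± 0.06. Their edgeR adjusted p-values ran from 0.065 to 0.11.

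On the higher side the named genes included parts of the ribosome and of RNA processing. Adarb2, an adenosine deaminase family member expressed in the nervous system, was 1019, 162, 69.7, 42.2 and 30.3 CPM at 10 nM and 1097, 204, 82.6, 62.6 and 40.4 CPM at 100 nM. Its difference was 0.31 ± 0.05, higher on 5 of 5 days, with an edgeR adjusted p of 0.065. Nlrp1a, an inflammasome sensor, was 194, 38.7, 15.1, 11.4 and 7.42 CPM at 10 nM and 227, 44.2, 21.5, 15.1 and 11.1 CPM at 100 nM (0.33 ± 0.06). At D9, D12 and D18 the 10 nM library held less of both genes than either DMSO library. The ribosomal protein genes Rpl38, Rpl21 and Rpl36 had differences of 0.19 ± 0.04, 0.18 ± 0.04 and 0.25 ± 0.06. Rbm25 and Pabpn1, which act in splicing and in poly(A) tail synthesis, had 0.18 ± 0.04 and 0.17 ± 0.04. Rasgrp1, a Ras activator, had 0.41 ± 0.10, Pnma5 0.34 ± 0.08 and Zfp97 0.27 ± 0.06. Genes were named here only if they had the same sign on the 5 days, so that sign is part of the choice.

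**Figure D2:**
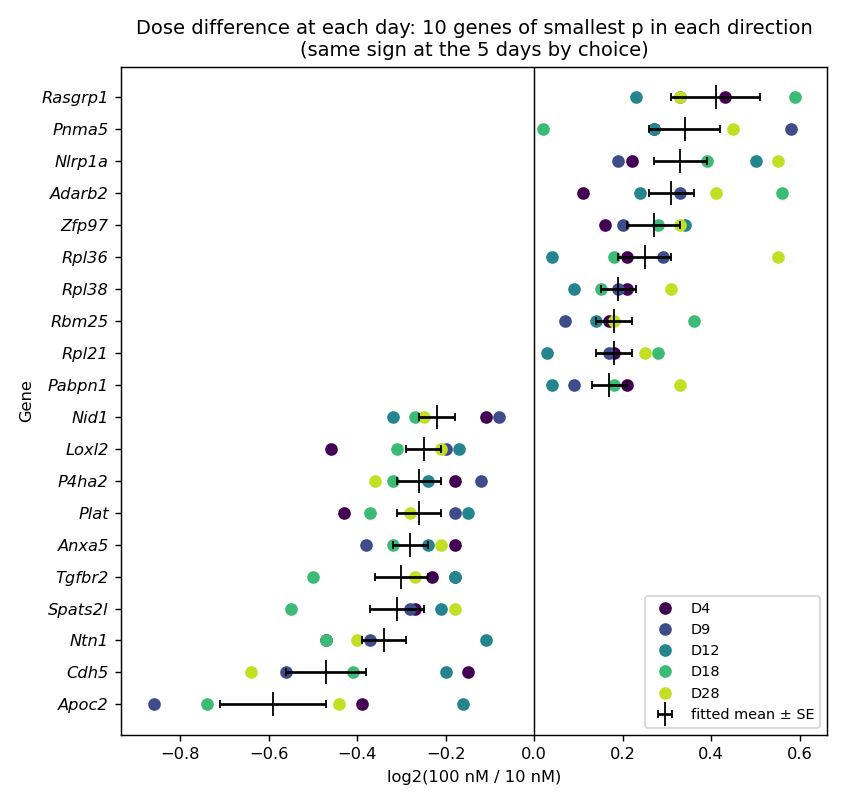
The log2 ratio of 100 nM to 10 nM (horizontal axis) for the 10 genes of smallest p in each direction (vertical axis), with 1 coloured point per day and the fitted mean with its SE in black. Fitted means run from -0.59 for Apoc2 to 0.41 for Rasgrp1, and the points of a gene lie on 1 side of 0 because genes were named by that rule.

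Over all genes, the ratios of one day were only loosely related to those of another. The correlation across 11890 genes between the log2 ratios of 2 days, which share no library, was -0.04 to 0.19 for 9 of the 10 pairs of days and 0.35 for D12 with D18. The ratios were also set beside the step of the DMSO mean from one day to the next. At D9 the correlation across genes was -0.40 with the step from D4 to D9 and -0.28 with the step from D9 to D12. At D18 it was -0.32 with the step from D12 to D18 and -0.24 with the step from D18 to D28, while at D4, D12 and D28 it was between -0.12 and -0.03. So at D9 and D18, genes that rose with time in DMSO tended to be lower at 100 nM than at 10 nM, and genes that fell with time tended to be higher. These are descriptions over genes of single libraries, with no test.

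Genes of endoderm and of the plasma proteins it secretes were on the lower side at 100 nM. These proteins, made by yolk sac endoderm and later by liver, carry lipid, iron and hormones in the blood. Of 18 tested plasma protein genes, 0 passed the adjusted threshold, all 18 had negative fitted differences, and 11 were lower at an unadjusted p under 0.05, beside 5.53% of all genes. Their median difference was -0.46, with a median of 0.00 over all genes tested. With 1 day pair left out, 8 (without D18) to 17 (without D28) of the 18 were lower at that threshold. Of 19 tested endoderm genes, all 19 were negative and 11 passed the unadjusted threshold (median -0.18), among them the pioneer factors Foxa1 (-0.47 ± 0.11) and Foxa2 (-0.22 ± 0.05), the endoderm regulator Gata6 (-0.30 ± 0.07) and the uptake receptor Cubn (-0.26 ± 0.05). Sox17, another endoderm factor, was 27.9, 29.6, 88.4 and 135 CPM at 100 nM from D9 to D28 and 27.4, 28.9, 95.8 and 137 CPM at 10 nM, a fitted difference of -0.04 ± 0.05. Lower at 100 nM did not always mean lower than DMSO. The summed level of the endoderm list at D12 was 4304 CPM at 10 nM and 4063 CPM at 100 nM, under the 6036 and 5877 CPM of DMSO. At D28 it was 19949 and 15505 CPM, both above the 13327 and 13663 CPM of DMSO.

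The plasma protein genes were farthest apart at D18. There, 0.99% of all genes were past 1.5-fold lower at 100 nM and 0.495% past 1.5-fold higher, while 8 of the 15 list members at 5 CPM were past 1.5-fold lower and 0 higher (median log2 ratio -0.71). Afp, alpha-fetoprotein, was 437 CPM at 10 nM and 157 CPM at 100 nM at D18, with 213 and 217 CPM in DMSO. Trf, transferrin, was 149 and 48.4 CPM, with 71.6 and 73.7 CPM in DMSO. Apoa1, the main protein of high-density lipoprotein, was 59.3 and 22.7 CPM, with 27.9 and 28.3 CPM in DMSO. For these 3 genes the 10 nM library was above both DMSO libraries and the 100 nM library below both. The same order held for Apoa4 (12.4 against 4.01 CPM), Apob (85.5 against 52.2), Apoc2 (5.32 against 2.99) and the fibrinogen chain Fga (11.9 against 3.9). The other fibrinogen chain past 1.5-fold, Fgg, was 10.9 CPM at 10 nM and 4.47 CPM at 100 nM, which lay between its DMSO values of 4.09 and 4.49. Apoe, which many cell types make, was 366 and 368 CPM.

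At D9 and D28 the order beside DMSO was another one. Background at D9 was 0.797% of all genes past 1.5-fold lower at 100 nM and 0.473% past 1.5-fold higher. At D9, 5 of 13 members were past 1.5-fold lower at 100 nM: Afp (262 against 159 CPM), Ttr, transthyretin (129 against 75.5), Apoa1 (77.5 against 49.2), Apoc2 (46.5 against 25.4) and Trf (59.9 against 30.3). For these the DMSO libraries held as much as or more than 10 nM, for example 289 and 299 CPM of Afp. Afp at D12 was 359 and 372 CPM in DMSO, 193 CPM at 10 nM and 146 CPM at 100 nM. At D28 it was 74 and 79, 62.1 and 39.4 CPM. The list as a whole went the other way at D28, with 6 of 10 members higher at 100 nM and 4 lower, a median log2 ratio of 0.16, and a summed level over all its members of 1308 CPM at 10 nM and 1437 CPM at 100 nM. Of these 10, Afp and Trf were past 1.5-fold lower and 0 were past 1.5-fold higher, beside 1.41% and 0.359% of all genes at D28. Over the days the fitted difference was -0.79 ± 0.21 for Afp and -1.0 ± 0.21 for Trf, with edgeR adjusted p-values of 0.406 and 0.293 and a lower value at 100 nM on 5 of 5 days. Without the D18 pair, Afp was the 1 gene past the adjusted threshold.

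The stretch before the start of 3 of these genes is given to show the sequence in which liver and yolk sac regulators act. Of 22 list members, 20 matched a RefSeq promoter entry (build GRCm38.p6), and the 250 bases before each start were searched on both strands. The half-site of the hepatocyte factor HNF1, GTTAAT, was in 7 of the 20 and in 6.52% of 27025 promoters of the same length. The letters TATAAA were in 3 of the 20 and in 13% of all, and CAAAGTC, a core of HNF4 sites, was in 2 of the 20 and in 3.8% of all. Afp and Fgb, the third fibrinogen chain, held the half-site and Fgg did not hold it, and Fgb was 30.4 and 20.2 CPM at D18 (10 nM and 100 nM). A match is only a match of letters. Capitals mark the half-site (GTTAAT, or ATTAAC on the other strand), each sequence runs 5′ to 3′ in the direction of the gene and ends at the base before the start. Afp is at chr5:90490464-90490713 (+ strand), Fgg at chr3:83007474-83007723 (+ strand) and Fgb at chr3:83049864-83050113 (- strand).
Afp: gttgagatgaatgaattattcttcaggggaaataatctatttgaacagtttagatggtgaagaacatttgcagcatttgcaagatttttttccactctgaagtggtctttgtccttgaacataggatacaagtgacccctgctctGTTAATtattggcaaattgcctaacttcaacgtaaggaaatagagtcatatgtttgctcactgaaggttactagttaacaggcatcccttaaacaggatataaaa
Fgg: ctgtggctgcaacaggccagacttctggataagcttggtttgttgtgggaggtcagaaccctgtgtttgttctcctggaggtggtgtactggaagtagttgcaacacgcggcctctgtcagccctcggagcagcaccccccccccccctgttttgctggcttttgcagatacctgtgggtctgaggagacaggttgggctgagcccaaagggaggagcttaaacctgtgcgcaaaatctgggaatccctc
Fgb: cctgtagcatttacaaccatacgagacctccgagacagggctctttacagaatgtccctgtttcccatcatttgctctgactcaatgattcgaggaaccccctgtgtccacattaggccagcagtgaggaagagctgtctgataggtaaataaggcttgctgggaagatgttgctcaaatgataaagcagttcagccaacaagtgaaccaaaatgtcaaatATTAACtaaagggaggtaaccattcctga

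Connective tissue genes were also lower at 100 nM, most of all at D18. Of 21 tested fibroblast and matrix genes, all 21 had negative fitted differences (median -0.23). Of them 9 passed the unadjusted threshold, beside 5.53% of all genes that were lower, and none passed the adjusted one. Without the D18 pair 3 of 21 were lower (median -0.10), without the D12 pair 4, and without the D28 pair 17 (median -0.36). At D18, 10 of 19 members were past 1.5-fold lower and 0 higher (median log2 ratio -0.61), beside 0.99% and 0.495% of all genes. Col1a1 was 1387 CPM at 10 nM and 889 CPM at 100 nM, with 1865 and 1999 CPM in DMSO. Col1a2 was 811 and 522 CPM, with 1166 and 1188 CPM in DMSO. Eln, elastin, was 37.2 and 17.5 CPM (DMSO 74.3 and 81.2), and Lox, the oxidase that cross-links both proteins, was 113 and 63.4 CPM (DMSO 191 and 192). The other members past 1.5-fold were Col5a2, Col6a1, Col6a2, Col6a3, the proteoglycan gene Dcn and Thy1. In each of the 10, both doses lay below both DMSO libraries and 100 nM below 10 nM. At D28 the list's median log2 ratio was 0.02 and its summed level was 18506 CPM at 10 nM and 18885 CPM at 100 nM, both under the 24621 and 25132 CPM of DMSO. With the D28 pair left out, 21 genes passed the adjusted threshold in edgeR, all lower at 100 nM, among them Col1a1, Dcn, Col6a3 and Pdgfrb.

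**Figure D3:**
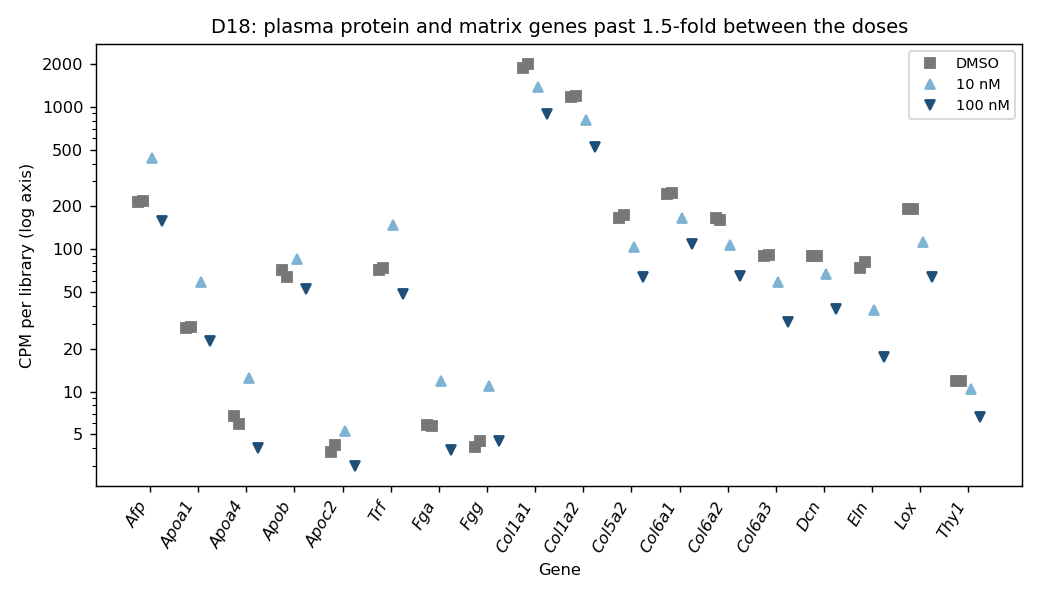
CPM per library on a log axis (vertical) at D18 for the plasma protein and matrix genes past 1.5-fold between the doses (horizontal), with grey squares for the 2 DMSO libraries, light triangles for 10 nM and dark triangles for 100 nM. Afp, Trf and Apoa1 are above DMSO at 10 nM and below it at 100 nM, while the 10 matrix genes from Col1a1 on go down from DMSO to 10 nM to 100 nM.

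Pluripotency genes were on the higher side at D9. Background at D9 was 0.473% of genes past 1.5-fold higher at 100 nM and 0.797% past 1.5-fold lower, and 7 of 24 pluripotency genes were past 1.5-fold higher with 0 lower (median log2 ratio 0.43). Nanog, a core pluripotency factor, was 114 CPM at 10 nM and 172 CPM at 100 nM, with 151 and 159 CPM in DMSO. Esrrb, a nuclear receptor of naive stem cells, was 59.8 and 95.2 CPM, with 95.9 and 99.5 CPM in DMSO. The others were Klf2, Prdm14, Nr0b1, Gdf3 and Lefty1, whose 10 nM values were all below both DMSO libraries. The summed level of the list was 2071 CPM at 10 nM, 2526 CPM at 100 nM and 2519 and 2566 CPM in DMSO, so at D9 the library that stood apart was the one at 10 nM. At D12 both doses were low, with 1505 and 1467 CPM beside 2050 and 1990 CPM. Over the days 4 of 24 members were higher at an unadjusted p under 0.05 (Gdf3, Nanog, Dppa5a and Dppa4), beside 3.41% of all genes. The median difference was 0.09. Without the D9 pair 3 were higher and 3 lower, with a median of 0.01.

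Other D9 differences were in early patterning and heart genes, beside 0.797% of all genes past 1.5-fold lower at D9 and 0.473% past 1.5-fold higher. Shh, the hedgehog ligand of notochord and floor plate, was 42.1 CPM at 10 nM and 14.2 CPM at 100 nM, with 33.3 and 30.5 CPM in DMSO, and at D12 it was 74.6 and 58.1 CPM with 36.1 and 34.8 CPM in DMSO. Of 12 cardiac muscle genes, 5 were past 1.5-fold lower at 100 nM and 0 higher: the myosin gene Myh7 (46.6 against 28.3 CPM), the troponin gene Tnnc1 (13.6 against 7.61), the transcription factor genes Hand2 (5.77 against 2.95) and Tbx20 (9.48 against 5.33), and Ankrd1 (5.5 against 2.79). DMSO was above 10 nM for each of these 5, for example 50.4 and 54.7 CPM of Myh7. Over the days, 17 of 21 tested cardiac genes had negative fitted differences (median -0.16). At an unadjusted edgeR p under 0.05, 3 were lower and 0 higher, beside 5.53% and 3.41% of all genes. Without the D9 pair 1 of 23 was lower (median -0.08). Among members near even over the days, Myh6 differed by 0.06 ± 0.15 and the troponin gene Tnnt2 by 0.00 ± 0.14. Pax7, a factor of dorsal neural tube and muscle stem cells, was 6.52 CPM at 10 nM and 12.2 CPM at 100 nM.

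**Figure D4:**
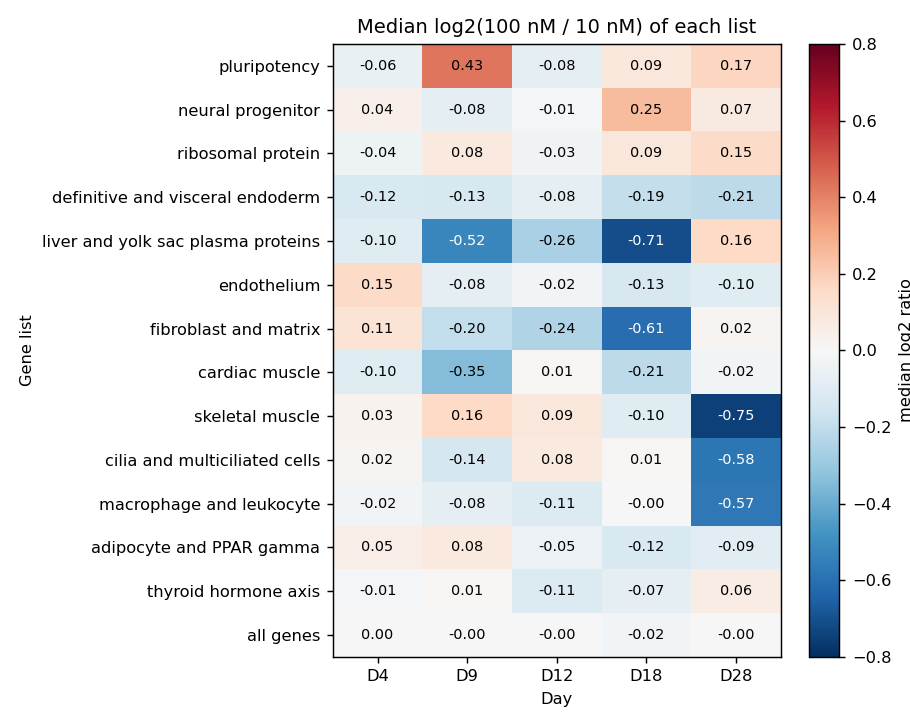
Median log2 ratio of 100 nM to 10 nM (colour and printed value) for 13 gene lists and all genes (vertical axis) at each day (horizontal axis), over members with at least 5 CPM in either library. Pluripotency stands at 0.43 at D9, plasma proteins at -0.71 and matrix at -0.61 at D18, and skeletal muscle at -0.75 at D28, while all genes stay between -0.02 and 0.00.

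At D28 skeletal muscle and motile cilia genes, and part of the macrophage genes, were lower at 100 nM. Background at D28 was 1.41% of genes past 1.5-fold lower and 0.359% past 1.5-fold higher. Of 11 skeletal muscle genes, 7 were past 1.5-fold lower and 0 higher, and all 11 ratios were negative (median -0.75). Myl1, a myosin light chain of fast muscle, was 12.5 CPM at 10 nM and 4.07 CPM at 100 nM, with 25 and 27.7 CPM in DMSO. Myh3, embryonic myosin, was 20.4 and 7.23 CPM, with 37.9 and 40.3 CPM in DMSO. Myog, the factor that starts muscle differentiation, was 5.03 and 2.66 CPM, with 11.3 and 10.8 CPM in DMSO. The same order, DMSO above 10 nM above 100 nM, held for Myh8, Mylpf, Tnnc2 and Acta1. At D18 the summed level of the list was 67.4 and 62.8 CPM at the doses and 170 and 177 CPM in DMSO. Over the days Myl1 had a difference of -1.45 ± 0.26 and an edgeR adjusted p of 0.065. At D4, D9 and D12 it was at most 0.754 CPM at either dose, and at D18 1.38 and 0.771 CPM. The values before D28 thus rest on few counts, and its log2 ratio at D12 was -0.00.

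Of 12 genes of motile cilia, 6 were past 1.5-fold lower at D28 and 0 higher, and all 12 ratios were negative. They were the dynein heavy chain genes Dnah5 (6.53 against 2.4 CPM), Dnah9 (19.5 against 9.24) and Dnah11 (8.22 against 4.52), and Ccdc39 (6.06 against 3.64), Ccdc40 (18.5 against 9.76) and Cfap43 (20.5 against 13.1), which build or dock the ciliary axoneme. Here 10 nM was near DMSO (17.1 and 20 CPM of Dnah9) and 100 nM was the library apart. Foxj1, the master factor of motile cilia, was 72.6 and 53.8 CPM, with 67.7 and 64.8 CPM in DMSO. Of 6 macrophage and leukocyte genes, 3 were past 1.5-fold lower, namely Lyz2 (14.9 against 6.82 CPM), Mrc1 (8.97 against 3.03) and C1qc (5.03 against 2.3). Of the other 3 members, 1 was lower and 2 were higher, and the most abundant, Cd68, was 36.1 CPM at 10 nM and 37.4 CPM at 100 nM. Of 10 endothelial genes 3 were past 1.5-fold lower at D28, and for Cdh5, Tek and Vwf it was the 10 nM library that stood above DMSO (Vwf 17 CPM, against 11.6 and 11.4 in DMSO and 6.68 at 100 nM). For Cdh5 and Vwf the 100 nM library also lay below both DMSO libraries. Lama1, a laminin chain of parietal endoderm basement membrane, was above DMSO at 10 nM too, at 2792 CPM. Its 1727 CPM at 100 nM lay between its DMSO values of 1640 and 1750.

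**Figure D5:**
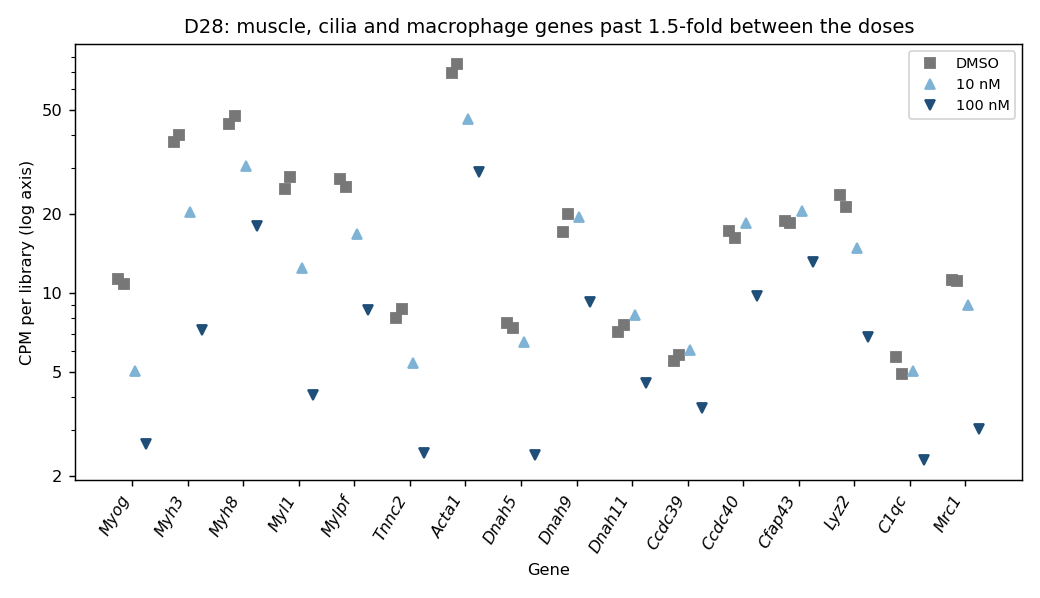
CPM per library on a log axis (vertical) at D28 for skeletal muscle, cilia and macrophage genes past 1.5-fold between the doses (horizontal), with grey squares for the 2 DMSO libraries, light triangles for 10 nM and dark triangles for 100 nM. The 100 nM library is the lowest of the 4 for each gene, and the muscle genes also have 10 nM below both DMSO libraries.

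Among the widest single ratios at D28, Ltf, lactoferrin, was 30 CPM at 10 nM and 9.92 CPM at 100 nM (DMSO 43.2 and 46.5). Pgc, the pepsinogen progastricsin, was 7.57 and 16.1 CPM (DMSO 5.95 and 6.15). At D18 Kng1, the precursor of bradykinin, was 5.3 and 0.736 CPM (DMSO 1.76 and 1.69). At D9 Il22ra1, an interleukin receptor chain, was 6.04 and 1.91 CPM (DMSO 4.81 and 5.35).

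D4 and D12 gave few such differences. At D4, 0.146% of genes were past 1.5-fold higher at 100 nM and 0.22% past 1.5-fold lower, and no list had more than 2 members there. They were Dppa3, a germ cell and oocyte factor (9.67 CPM at 10 nM, 5.67 CPM at 100 nM, 18.8 and 18.1 CPM in DMSO), the early response gene Ier3 (10.2 against 15.6), the Notch ligand gene Dll1 (4.11 against 6.82) and the retinoic acid receptor gene Rarb (5.53 against 2.74). The neuronal receptor gene Grin1 was 5.99 and 2.38 CPM at D4, and Plbd1 was 5.14 and 2.25 CPM. At D12, 0.0853% of genes were past 1.5-fold higher and 0.153% past 1.5-fold lower. The list members past 1.5-fold lower included the smooth muscle actin gene Actg2 (20.2 against 13.2 CPM) and Hbb-bh1, an embryonic globin chain (16.3 against 9.94 CPM, with 24.6 and 26.8 in DMSO). On the higher side was 1 member of the neuron list, with a log2 ratio of 0.75.

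The test for a dose difference that rises or falls along the days called 1 gene of 14730 (0.00679%). Krt5, the keratin of basal epithelial cells, was 83.3 CPM at 10 nM and 55.7 CPM at 100 nM at D18, and 241 and 285 CPM at D28 (DMSO 199 and 208). At D12 it was 2.74 and 1.05 CPM, and at D4 and D9 it was at most 0.269 CPM at either dose. Its dose difference rose by 1.24 ± 0.17 (log2 per doubling of the day), with an edgeR adjusted p of 0.0394. The early values rest on few counts, and the test called no gene with DESeq2, with library size alone, with limma on log2(FPKM + 1), with the DMSO libraries in the fit, or with the D9 or the D28 pair left out. On simulated counts with no change along the days this test called 5 genes, more than the 1 called here. S100g, a calcium-binding protein of absorptive epithelium, was next (0.76 ± 0.12, edgeR adjusted p of 0.089), at 26.5 and 17.9 CPM at D9 and 35.9 and 60.9 CPM at D28. Igfbp1, an insulin-like growth factor carrier, was 8.19 and 4.87 CPM at D9 and 75.4 and 125 CPM at D28. Pitx1, a hindlimb and oral factor, was 19.8 and 11.8 CPM at D9 and 117 and 154 CPM at D28. Scube3 was 30.2 and 20.3 CPM at D4 and 32.2 and 39.6 CPM at D28. In the other direction, Actc1, cardiac actin, was 20 and 26.1 CPM at D4 and 28.3 and 18.5 CPM at D28, and Myh3 was also among the 5 of smallest p. The other 3, Snurf, Sprr2a2 and 1700047I17Rik2, share reads with overlapping genes or copies, or were not described further.

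Lists of the hormone and fat cell pathways were mixed, and the xenobiotic list had more lower than higher genes at 100 nM. At the unadjusted threshold 3.41% of all genes were higher and 5.53% lower. Of 20 tested genes of the thyroid hormone axis, 8 had positive and 12 negative fitted differences, and 1, the thyroxine transporter gene Slco1c1 (-0.64 ± 0.29), passed the unadjusted threshold. The receptor genes Thra and Thrb had -0.02 ± 0.05 and -0.18 ± 0.20, the response gene Klf9 had 0.01 ± 0.06 and the inactivating deiodinase gene Dio3 had 0.16 ± 0.15. Of 14 tested adipocyte and PPAR gamma genes 0 passed the unadjusted threshold (median -0.04). Pparg itself was between 0.0605 and 2.85 CPM in the 10 TBBPA libraries, and Fabp4, its target, was at most 1.81 CPM there and was not tested. Of 19 genes of the xenobiotic response, 5 were lower and 0 higher at the unadjusted threshold (1 of 18 lower without the D28 pair). They were Abcc2, an export pump for conjugates (-0.60 ± 0.22), Ugt2b34, a glucuronosyltransferase (-0.53 ± 0.19), Cyp1b1, a target of the aryl hydrocarbon receptor (-0.19 ± 0.07), Gstm1 (-0.14 ± 0.05) and Por (-0.11 ± 0.05). Cyp1b1 was 53.8 and 40.6 CPM at D18, while Cyp1a1 was at most 1.77 CPM and Ahrr at most 1.21 CPM in these libraries. Of 12 estrogen and steroid genes, 2 were lower, Hsd17b2 (-0.77 ± 0.21) and Xbp1.

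Single stress markers were close between the doses. Nqo1 and Hmox1, targets of NRF2, had 0.13 ± 0.11 and 0.01 ± 0.06, Ddit3 of the integrated stress response 0.03 ± 0.08, and the p53 target Cdkn1a 0.02 ± 0.04. Of 23 genes of the NRF2 list, 2 were higher and 3 lower at the unadjusted threshold, beside 3.41% and 5.53% of all genes. Of 26 unfolded protein and stress genes there were 1 and 4, and of 20 p53 targets 1 and 1. Of 34 hypoxia and glycolysis genes there were 0 and 6, with P4ha2 and P4ha1 at the smallest p. In that list 29 of the 34 had negative fitted differences (median -0.05). Of 26 ribosomal protein genes, 5 were higher and 0 lower, with a median of 0.06 and the largest of the 5 at 0.11 (Rpl19). Rpl38, Rpl21 and Rpl36 are not in that list, and without the D9 pair 0 of its 26 members were higher or lower at the threshold. Of 26 cell cycle genes 1 was higher and 0 lower, and of 24 cholesterol synthesis genes 0 and 1.

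Several genes of early neural identity were on the higher side. Of 21 neural progenitor genes, 5 were higher at 100 nM and 1 lower at the unadjusted threshold, beside 3.41% and 5.53% of all genes. The median of the list was 0.06, and -0.03 without the D18 pair. Zic1 (0.35 ± 0.08), Zic2 (0.20 ± 0.05), Sox3 (0.21 ± 0.06) and Sox1 (0.20 ± 0.07), which mark the early neural plate, were the 4 of smallest p. At D18 Zic1 was 94.7 CPM at 10 nM and 133 CPM at 100 nM, with 80.9 and 77.8 CPM in DMSO, and Hes5, a Notch target, was 15.1 and 24.2 CPM with 10.8 and 10.2 CPM in DMSO. Pax3, of neural crest and dorsal neural tube, was 12.6 and 20.8 CPM at D18 with 9.84 and 10.3 CPM in DMSO. Pax6 had a difference of 0.16 ± 0.08. Over the days neuron genes were near even (median 0.00), and their direction varied with the day. At D4 8 of 10 and at D12 20 of 24 were higher at 100 nM (median log2 ratio 0.11 on both days). At D28 12 of 17 were lower (median -0.16). Of 27 neuron genes 1 was higher, Pou4f1 (0.26 ± 0.11), and 1 lower, Tubb3 (-0.11 ± 0.05). Tubb3 was 431 and 367 CPM at D18 with 221 and 232 CPM in DMSO. The astrocyte gene Gfap was 998 and 936 CPM at D28 with 711 and 714 CPM in DMSO. Of 15 glial genes 4 were lower, among them the water channel gene Aqp4 (-0.51 ± 0.13). Gfap was expressed at too few days to be tested.

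In signalling lists, 10 of 36 genes of the FGF, Notch, hedgehog and retinoic acid pathways were lower and 1 higher. Rarb (-0.45 ± 0.10), the FGF feedback gene Dusp6 (-0.27 ± 0.06) and the retinoic acid synthesis gene Aldh1a1 (-0.63 ± 0.15) were lower, and the carrier gene Crabp2 was higher (0.20 ± 0.05). Of 34 BMP, TGF-beta and Wnt genes, 8 were lower and 5 higher. The ligand genes Bmp2 (-0.31 ± 0.09) and Tgfb1 (-0.20 ± 0.07) were lower, and the Wnt genes Wnt3 (0.30 ± 0.09) and Wnt1 (0.22 ± 0.07) and the Wnt enhancer gene Rspo3 (0.38 ± 0.12) were higher. Of 18 endothelial genes 6 were lower (median -0.29), and 1 without the D9 pair, led by Cdh5 and the VEGF receptor gene Kdr (-0.30 ± 0.10), while Pecam1 differed by 0.03 ± 0.08. Of 19 epithelial genes 5 were lower and 1 higher, with the keratin gene Krt15 at 33.5 and 15.9 CPM at D18. These counts are at the unadjusted threshold, at which 3.41% of all genes were higher and 5.53% lower, and none of the genes in any of the lists passed the adjusted one.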

How the data were processed

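The RNA of 22 libraries was read from 1 deposited table per library, and 10 TBBPA libraries were compared, with the 10 DMSO libraries as background. Each table gives an expected count per gene, the authors' estimate, per the file headers (64.9 to 66.7% of the values were whole). FPKM values, normalized by the authors, were deposited in another column, per the file headers. Reads were aligned with HISAT and Bowtie2 to GRCm38.p5, per the submitters' processing notes, and the counting tool and its use of strand are not given in the sources used here, so antisense and overlapping genes are uncertain. Genes that a library did not list were set to 0. In all there were 19721 genes, and 1 symbol was shared by 2 gene IDs. Total counts were 18246841 to 18998141 in the 10 libraries.

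Rounded expected counts entered edgeR 4.0.16 under R 4.3.3 (TMM, filterByExpr with a minimum count of 10 and total of 15, robust quasi-likelihood test, Benjamini-Hochberg adjustment over 14730 genes, threshold 0.05). The model held the day as a factor and the dose, with 4 residual degrees of freedom, so the error is the spread of the dose difference over the days. A second model added the product of dose and log2 of the day (3 residual degrees of freedom). The SE is the size of the log2 difference divided by the square root of F. Pairs of libraries at 1 day were described without a test, over genes with at least 5 CPM in either, with 0.5 CPM added. Both models were tried on simulated data in which 200 genes differed.

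The comparison and the 35 gene lists were chosen with earlier results of these data known, so no list was tested as a set. Since no gene passed, the genes named over the days are the 10 of smallest p in each direction with the same sign on the 5 days and a mean of 2 log2 CPM or more. Also named are the 5 of smallest p in each direction along the days, genes among the 5 highest and 5 lowest ratios of a day, list members of smallest p or past 1.5-fold at a day, and 26 fixed markers. Apoe, Fgb, Tgfb1, Cd68 and Por were described after their values were seen. Some genes that meet these rules are not reported here. Alternatives were DESeq2 1.42.0, other size factors, other filters, limma 3.58.1 on log2(FPKM + 1) and log2(FPKM + 0.1), the DMSO libraries in the fit, no day term, days 9, 12 and 18 alone, and each day pair left out. For pairs of libraries, the minimum level, the added value and the unit were varied. Leaving out 20 genes that were over 2-fold apart in a DMSO pair, and recounting the lists under other scalings and days, were chosen after seeing the data. Promoter sequences are from RefSeq, and the plots were made in Python 3.11.15 with matplotlib 3.10.9.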

Additional observations from a re-analysis of the deposited data

Results flagged for a closer look

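Among the 20 genes named over the days and the other genes of fixed interest, 40 genes were checked for a day whose log2 ratio of 100 nM to 10 nM lay far from those of the other 4 days. There were 4 such days. Ntn1 had a log2 ratio of -0.11 at D12, with -0.47 to -0.37 on the other days. Tgfbr2 had -0.50 at D18, with -0.27 to -0.18 on the others, and Spats2l had -0.55 at D18, with -0.28 to -0.18. Ddit3 had -0.36 at D12, with 0.06 to 0.23 on the others. The gap to the nearest day was 0.721 to 0.731 of the whole range in these 4 genes, above the limit of 0.71 for 5 values. Chance alone flags about 1 in 20 groups. Krt5 was flagged because its dose difference changed along the days, by 1.24 log2 units per doubling of the day, from 83.3 CPM at 10 nM and 55.7 CPM at 100 nM at D18 to 241 and 285 CPM at D28.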

How the results depend on the processing

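The count of 0 genes past the adjusted threshold over the days became 27 with DESeq2, 31 with no filter, 6 with the strict filter and 43 with days 9, 12 and 18 alone, and 1 (without the D9 or the D18 pair) to 31 (without the D12 pair) with 1 day pair left out. It stayed 0 with DESeq2 size factors, library size alone, limma on either FPKM scale, the DMSO libraries in the fit, those libraries summed, and no day term. The count of 1 gene along the days became 0 with DESeq2, library size alone, limma on log2(FPKM + 1), the DMSO libraries in the fit, and those libraries summed, 2 with no filter, and 0 to 7 with 1 day pair left out. The cause was not tested. The counts past 1.5-fold at D4, D9, D12, D18 and D28 became 257, 446, 184, 515 and 608 with a minimum of 1 CPM (234, 182, 161, 171 and 151 between the DMSO libraries), 6, 42, 2, 57 and 39 with 20 CPM, 17, 93, 11, 104 and 134 with 2 CPM added, and 12, 56, 10, 61 and 75 on log2(FPKM + 1). A lower minimum adds genes of few counts, and a larger added value shrinks their ratios. Without the 20 genes that were over 2-fold apart in a DMSO pair, the counts were 35, 135, 22, 173 and 207. Between the DMSO libraries they were then 15, 13, 13, 7 and 8, which that choice of genes lowers by itself. The correlation of D12 with D28 went from -0.04 to -0.17 over genes of at least 20 CPM. The 20 genes named over the days kept their sign in all 320 values under these alternatives. They were chosen for the same sign on the 5 days, so this could hardly have come out otherwise and is no support for them. The neural progenitor median turned from 0.06 to -0.03 without the D18 pair. The fit reported is paired by day. By replicate number, no paired analysis was possible because the TBBPA libraries carry no such number. Depth limits low genes, for which 5 CPM is 91.2 to 95 counts.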
